A study of Homo sapiens with 6 samples.

Results

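The genes described here encode the channel, the kinases and the carrier with which human cells sense and correct their volume. They were chosen by gene symbol, namely LRRC8A, LRRC8B, LRRC8C, LRRC8D and LRRC8E, the kinases WNK1, STK39 and OXSR1, and the carrier SLC12A2, and together they are 9 of the 60605 genes in the deposited table. The samples were MDA-MB-231 cells, an established triple-negative breast cancer line, which carried either a control short hairpin (shControl, 3 libraries) or a short hairpin against PUS1, a pseudouridine synthase (shPUS1, 3 libraries). Both hairpins were given as lentivirus and both arms share puromycin selection, so there were no cells without virus or drug in the comparison. The study's methods describe several hairpins against PUS1 and its text does not name the one in the sequenced cells. The samples are labelled as biological replicates, but whether they came from separate infections is not stated, and the p-values below measure the spread between these samples only.

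Cells that swell open an anion channel built from LRRC8 proteins and lose chloride and organic osmolytes through it, whereas cells that shrink load sodium, potassium and chloride through the carrier NKCC1, the product of SLC12A2. LRRC8A is the subunit the channel cannot do without, and its partners LRRC8B to LRRC8E set what the pore lets through. WNK1 senses intracellular chloride and crowding and activates the related kinases SPAK (STK39) and OSR1 (OXSR1), which in turn phosphorylate NKCC1 and switch it on. Much of this control acts through phosphorylation and channel opening, which RNA sequencing does not measure.

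The depth of the 6 libraries ranged from 14241505 to 19625998 estimated counts in total, and all 9 genes passed the filter on low counts together with 14748 genes in all. PUS1 itself was at 14.5, 27.5 and 12.1 CPM (counts scaled to a common library size, with TMM factors) in shControl and at 6.57, 5.47 and 5.37 CPM in shPUS1, so that the groups did not overlap, and it fell by 1.62 on the log2 scale (SE 0.318, adjusted p = 0.0462, edgeR's quasi-likelihood test). The control library of replicate 2 stood apart, with correlations of 0.9505 and 0.9521 with the other controls, which correlated at 0.981 with each other. It also had the highest PUS1 level, and without shControl replicate 2 the log2 difference of PUS1 was -1.19. Of the markers of the line, VIM and CD44 were abundant, with at least 748 CPM in every library, whereas ESR1 stayed at or below 0.59 CPM and PGR at or below 0.223 CPM. Of the other markers taken as absent or low, ERBB2 was nevertheless present at 51.1 to 73.3 CPM and EPCAM at 5.45 to 7.81 CPM, and CDH1 did not exceed 1.09 CPM. The summed level of the 5 identity markers was 3859 to 4899 CPM in shControl and 3208 to 3439 CPM in shPUS1, with none past the threshold. The 7 markers of blood, endothelium and fibroblasts summed to 1.63 to 6.47 CPM in shControl and 4.34 to 5.09 CPM in shPUS1. Most of this was from PECAM1, at 1.47 to 3.5 CPM over the 6 libraries, and CDH5, at 0.157 to 2.79 CPM, whereas CD3E was at 0 in every library. The part of these shifts in the results below was not tested, and in such bulk samples fewer cells of a kind and less RNA per cell cannot be told apart.

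None of the 9 genes passed an adjusted p of 0.05 in either direction (edgeR's quasi-likelihood test, adjusted over all genes tested). Over all genes, 2.58% were called in either direction and 1.74% were called higher in shPUS1. At an unadjusted p under 0.05, 4 of the 9 were higher in shPUS1, namely LRRC8A, LRRC8D, LRRC8E and OXSR1, and 0 were lower. Over all genes, 12.6% were higher at that level, and 3758 of the 14748 genes tested reached it in either direction. In 5 of the 9 genes every shPUS1 library lay above every shControl library, the fifth being LRRC8C, beside 18.8% of all genes. In 0 of the 9 every shPUS1 library lay below, beside 2555 of the 14748 genes tested. With 9 genes, such counts of 0 say little about these genes. DESeq2 called 1 of the 9 higher (LRRC8A, adjusted p = 0.00411), beside 7.37% of all genes with an adjusted p, and limma called 0 on log2(FPKM + 1), beside 1.92% of all genes called higher, and 0 on log2(FPKM + 0.1), beside 1.16%. The median log2 difference of the 9 genes was 0.26, with a range from -0.40 to 0.70, and the median of all genes tested was -0.034. The difference was positive in 7 of the 9 genes and negative in LRRC8B and SLC12A2.

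**Figure D1:**
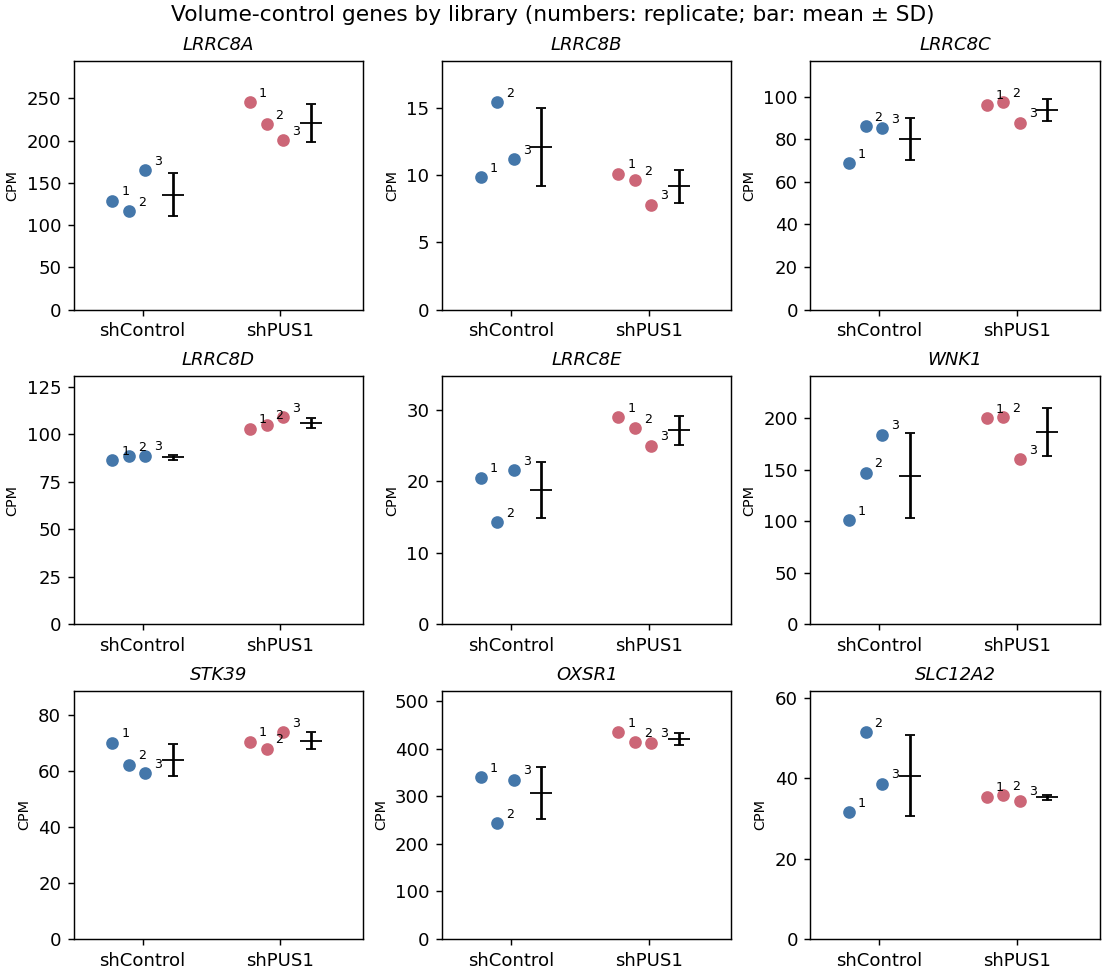
Each panel plots 1 gene, with the 6 libraries as points (CPM, y axis from 0; the numbers are replicates) and the mean ± SD of the 3 libraries of each group beside them. LRRC8A, LRRC8C, LRRC8D, LRRC8E and OXSR1 have all shPUS1 points above all shControl points, and the remaining panels overlap.

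LRRC8A (ENSG00000136802, chromosome 9, from 128882133 to 128918039, plus strand), the obligatory subunit of the channel, had the largest difference of the 9 genes. It was at 129, 116 and 165 CPM in shControl and at 245, 219 and 200.4 CPM in shPUS1. The lowest knockdown library thus lay above the highest control, and the means were 136 ± 25.3 and 221 ± 22.2 CPM (SD, n = 3 each). The log2 difference was 0.70 (SE 0.161, 95% interval 0.33 to 1.07), or 1.62-fold, at an adjusted p of 0.0602 in edgeR's quasi-likelihood test, just outside the threshold. The call turned on the libraries and the method. It passed when shControl replicate 2 was left out (log2 difference 0.59, adjusted p = 0.0193) and when shControl replicate 3 was left out (0.85, adjusted p = 0.0458), with DESeq2 and without the filter on low counts (adjusted p = 0.0157). The fit without shControl replicate 2 called 9.8% of all genes higher, and DESeq2 7.37% of those with an adjusted p. The fit without shControl replicate 3 called 2.09% of all genes higher, and the fit without the filter 2.8%. Over 13 alternatives the log2 difference stayed between 0.59 and 0.85 and the adjusted p ran from 0.00411 to 0.271. The 5′ end of LRRC8A overlaps KYAT1, on the opposite strand, over 362 of its 35907 bases, and the strandedness of the counts is not given in the sources used here. KYAT1 had a log2 difference of 0.0024 (adjusted p = 0.997).

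A start of LRRC8A and the start of OXSR1 are shown here because both hold the palindrome of the cyclic AMP response element. This letter string was found in 1.85% of all 35116 promoter windows of the same length. The 7 strings searched were chosen after the windows of the 9 genes had been looked at, so this percentage does not test the match. LRRC8A and OXSR1 also had the smallest p-values among the 9, and whether that goes with the string was not tested. Each sequence is a stretch of 30 bases on the plus strand of GRCh38.p14, from RefSeq, with the 8 bases of the element in capitals. In LRRC8A (chr9:128882094-128882123) the element lies 28 to 21 bases before the upstream RefSeq start, which is also the start of the gene in the deposited table. The window of the other RefSeq start of LRRC8A (chr9:128882384-128882683) does not hold the element. The printed LRRC8A stretch also lies inside the span of KYAT1, on the opposite strand (128832942 to 128882494). In OXSR1 (chr3:38165477-38165506) it lies 49 to 42 bases before the RefSeq start at 38165537, which is 448 bases downstream of the deposited start, so that the element falls inside the deposited gene span.
LRRC8A: gcgcccggcggTGACGTCActtccggggcg
OXSR1: gaccagcgcagTGACGTCAgcgcgctgcgt
Outside the 8 letters the stretches differ, and the match describes the letters only, since nothing in these data measures binding at either start.

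The other subunits differed in size and direction. LRRC8E (chromosome 19, from 7888505 to 7902021) was at 20.5, 14.3 and 21.6 CPM in shControl and at 29, 27.5 and 25 CPM in shPUS1, a log2 difference of 0.53 (SE 0.186, adjusted p = 0.133). LRRC8D (chromosome 1, from 89821014 to 89936611), a subunit known for the passage of organic osmolytes and platinum drugs, was at 86.3, 88.5 and 88.8 CPM in shControl and at 103, 105 and 109 CPM in shPUS1. The spread within its groups was the narrowest of the LRRC8 genes in shControl, and the log2 difference was 0.26 (SE 0.105, adjusted p = 0.171). In both genes the groups were apart, with the knockdown libraries higher, but neither passed the threshold under any of the 13 alternatives. Of the stretches of 100 bases in the LRRC8E transcripts, 71% are shared with an antisense gene without a name, which had 0 to 6 counts per library, so LRRC8E reads and reads of that gene cannot be told apart without strand.

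LRRC8C (chromosome 1, from 89633072 to 89769903) was at 68.9, 86.3 and 85.3 CPM in shControl and at 96.4, 97.4 and 87.9 CPM in shPUS1. The groups did not overlap, yet the gap between the highest control and the lowest knockdown library was narrow, and the log2 difference was 0.23 (SE 0.132, 95% interval -0.077 to 0.53, adjusted p = 0.311). It was 0.13 without shControl replicate 1. LRRC8B (chromosome 1, from 89524829 to 89597861), the subunit with the fewest reads, was at 9.82, 15.4 and 11.2 CPM in shControl and at 10.1, 9.63 and 7.79 CPM in shPUS1. These groups overlapped, and the log2 difference was -0.40 (SE 0.222, 95% interval -0.91 to 0.11, adjusted p = 0.292). It was -0.20 without shControl replicate 2, which was the highest of the 6 libraries. LRRC8B overlaps 3 other genes, 2 of them on the opposite strand. Over all libraries their counts came to 12% of its own, and the strandedness of the counts is not given. LRRC8B, LRRC8C and LRRC8D stand in a row on the plus strand of chromosome 1, with 35210 and 51110 bases between them, and LRRC8B had a negative difference beside positive ones of its neighbours, with intervals that overlap.

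Since FPKM is a level per exonic length of the gene, it allows the subunits to be added and compared within a library. It is not a level per length of the transcript expressed, so the shares below depend on the exonic lengths used. The summed FPKM of the 5 LRRC8 genes was 55.3, 51.5 and 65.5 in shControl and 83.1, 79.3 and 74.3 in shPUS1, with every knockdown library above every control. LRRC8A made up 45.5%, 42.0% and 49.8% of this sum in shControl and 55.7%, 52.9% and 51.3% in shPUS1, a mean difference of 7.55 percentage points (45.7 ± 3.9% and 53.3 ± 2.23%, SD, n = 3 each). The share of LRRC8B was 2.61 ± 0.784% and 1.39 ± 0.117%, and that of LRRC8C 12.1 ± 1.62% and 10.1 ± 0.356%, both without overlap and both smaller in shPUS1. LRRC8D held 32 ± 2.88% and 27.4 ± 2.31%, and LRRC8E 7.59 ± 1.28% and 7.87 ± 0.153%, both with overlap. Shares add up to a fixed total, so a larger share of LRRC8A goes with smaller shares of others. The exact 2-sided permutation test over the 6 libraries gave p = 0.1 for the sum and for the shares of LRRC8A, LRRC8B and LRRC8C, 0.2 for LRRC8D and 0.8 for LRRC8E, and with 3 libraries against 3 it cannot go below 0.1. Adjusted over the 7 quantities tested in this way, these exact p-values were 0.175, 0.233 and 0.8. Without shControl replicate 2 the difference in the LRRC8B share went from -1.22 to -0.77 percentage points, that of LRRC8C from -2.0 to -1.08 and that of LRRC8E from 0.279 to -0.413, and with counts in place of FPKM that of LRRC8C was -3.4. Without shControl replicate 1 the difference in the LRRC8E share between the groups was 0.843 percentage points.

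**Figure D2:**
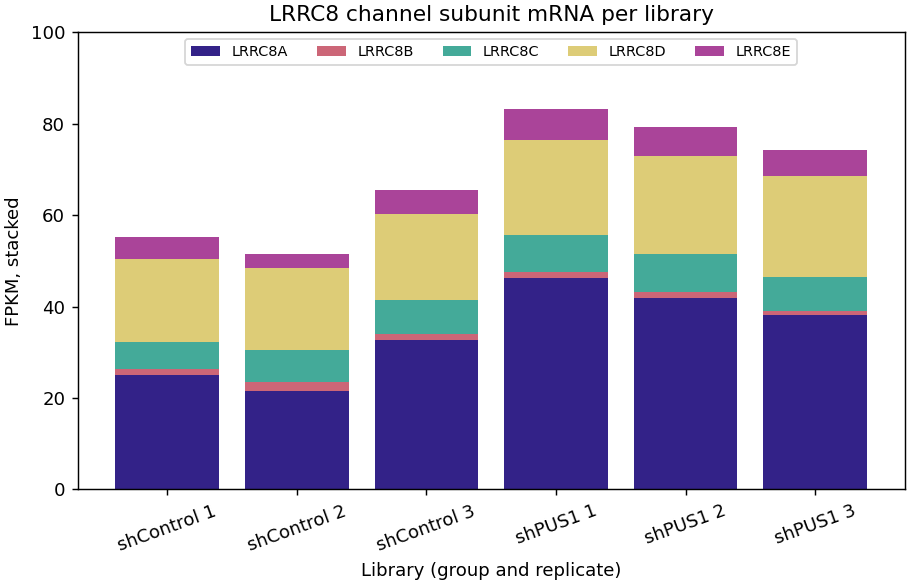
Stacked bars give the FPKM of each LRRC8 gene (y axis from 0) in each of the 6 libraries (x axis). The LRRC8A part is the lowest and largest block in every bar, and the 3 shPUS1 bars are taller (74.3 to 83.1) than the 3 shControl bars (51.5 to 65.5).

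Among the kinases, OXSR1 (ENSG00000172939, chromosome 3, from 38165089 to 38255484), which encodes OSR1, was the highest and the one whose groups did not overlap. It was at 340.1, 243 and 335 CPM in shControl and at 435, 414 and 412 CPM in shPUS1. The means were 306 ± 54.7 and 420.3 ± 12.5 CPM (SD, n = 3 each), and the log2 difference was 0.46 (SE 0.151, 95% interval 0.11 to 0.81), or 1.37-fold, at an adjusted p of 0.121 in edgeR's quasi-likelihood test. The lowest value belonged to shControl replicate 2. Without that library the log2 difference was smaller, 0.31, and passed the threshold (adjusted p = 0.0379), as did LRRC8A, in a fit that called 9.8% of all genes higher.

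WNK1 (chromosome 12, from 752579 to 911452), at the head of the cascade, was at 101, 147 and 184 CPM in shControl and at 200, 201 and 160.4 CPM in shPUS1. The control libraries spread widely and 1 of them lay above a knockdown library. The log2 difference was 0.38 (SE 0.217, 95% interval -0.12 to 0.88, adjusted p = 0.304), and it was 0.18 without shControl replicate 1 and 0.59 without shControl replicate 3. STK39 (chromosome 2, from 167954020 to 168247595, minus strand), which encodes SPAK, was at 70.2, 62.3 and 59.3 CPM in shControl and at 70.5, 68.0 and 74.0 CPM in shPUS1, with overlap and a log2 difference of 0.15 (SE 0.121, 95% interval -0.13 to 0.43, adjusted p = 0.462). Without shControl replicate 3 it was 0.087. The ratio of STK39 to OXSR1 FPKM was 0.339, 0.42 and 0.29 in shControl and 0.266, 0.269 and 0.295 in shPUS1, so OXSR1 was the higher of the pair in every library, and the groups overlapped through shControl replicate 3. The log2 ratio differed by -0.322 between the means, and by -0.181 without shControl replicate 2, with an exact permutation p of 0.2 (adjusted 0.233) in a design that cannot go below 0.1 and so cannot settle whether the ratio differed.

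SLC12A2 (ENSG00000064651, chromosome 5, from 128083766 to 128189677), the carrier at the end of the cascade, was at 31.5, 51.5 and 38.6 CPM in shControl and at 35.4, 35.7 and 34.4 CPM in shPUS1. The knockdown libraries lay within a narrow band inside the range of the controls. The log2 difference was -0.21 (SE 0.187, 95% interval -0.64 to 0.23, adjusted p = 0.508), and it was -0.0031 without shControl replicate 2 and -0.36 without shControl replicate 1, so its size rested on those libraries.

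By level per exonic length, OXSR1 led the 9 genes in both groups, with 51.0 ± 10.4 FPKM in shControl and 68.6 ± 1.76 FPKM in shPUS1. LRRC8A followed with 26.4 ± 5.59 and 42.1 ± 4.1 FPKM. LRRC8D came next with 18.2 ± 0.574 and 21.5 ± 0.6 FPKM, then STK39 with 17.4 ± 1.66 and 19.0 ± 0.757 FPKM. In the middle stood WNK1 with 8.39 ± 2.5 and 10.7 ± 1.35 FPKM and LRRC8C with 6.88 ± 0.798 and 7.94 ± 0.448 FPKM. The order of the means was the same in both groups. LRRC8E had 4.39 ± 1.04 and 6.22 ± 0.454 FPKM, SLC12A2 3.82 ± 0.843 and 3.27 ± 0.0751 FPKM, and LRRC8B was the lowest with 1.47 ± 0.308 and 1.1 ± 0.146 FPKM (all SD, n = 3). In shControl the ranges of LRRC8D and STK39, of WNK1 and LRRC8C, and of LRRC8E and SLC12A2 overlapped, so these neighbours cannot be ordered there, whereas in shPUS1 no neighbours overlapped. In shControl the carrier lay above 45.6% of the tested genes and OXSR1 above 94.5% of them.

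**Figure D3:**
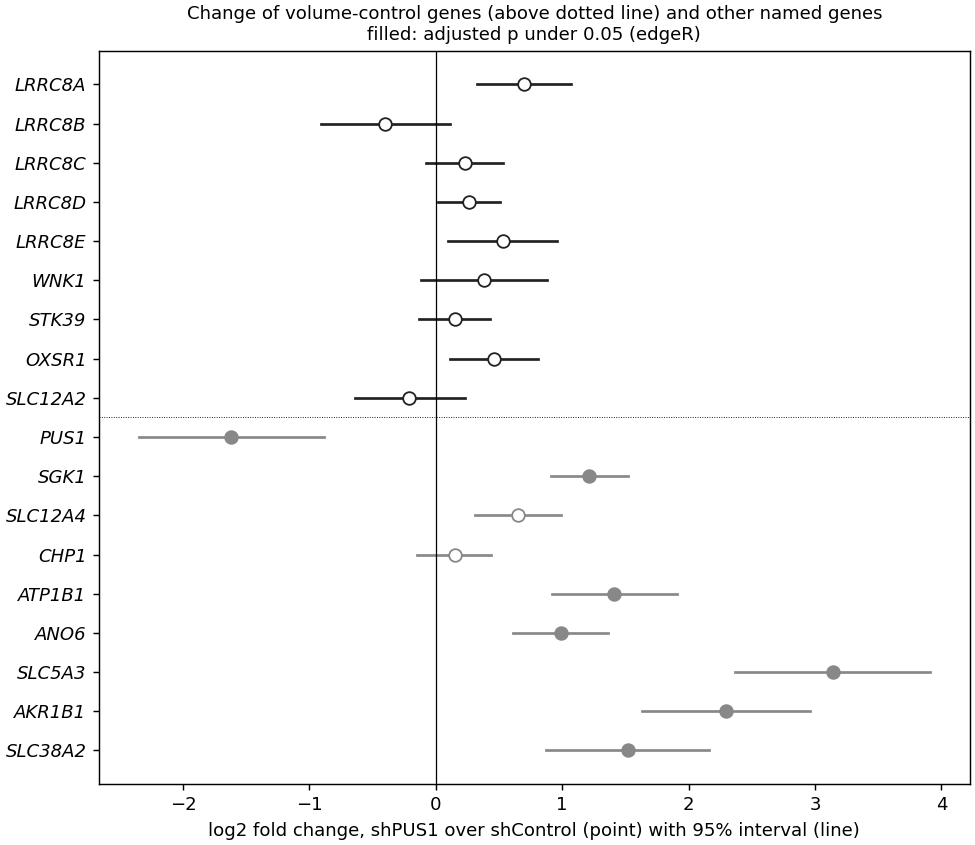
Points are log2 differences (shPUS1 over shControl, x axis) with 95% intervals as lines. The 9 genes are above the dotted line, and PUS1 and other named genes, without SLC6A12, are below it. Filled points passed an adjusted p of 0.05 in edgeR's test. All 9 upper points are open and lie between -0.40 and 0.70. SGK1, ATP1B1, ANO6, SLC5A3, AKR1B1 and SLC38A2 are filled and lie to the right of 0, and PUS1 is filled and lies to the left.

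The surrounding pathway was read through 66 further genes in 6 lists, which were chosen with earlier results of these data known. Of these, 50 were tested, 7 were called higher and 0 lower (edgeR's quasi-likelihood test), with a median log2 difference of 0.26. Over all genes, 1.74% were called higher, and 124 of the 14748 genes tested were called lower. Among 13 tested partners of the WNK cascade, 1 passed: SGK1, a kinase that hormones and cell shrinkage induce, rose from 17.1, 15.4 and 16.2 CPM to 38.6, 39.3 and 35.5 CPM (log2 difference 1.21, SE 0.131, adjusted p = 0.0147). Its groups were far apart relative to their spread. None of the 5 tested cation-chloride carriers passed, and the one with the highest mean FPKM, SLC12A4, which encodes KCC1 and exports potassium with chloride, had a log2 difference of 0.65 (adjusted p = 0.0585). Like LRRC8A, it passed with DESeq2 (adjusted p = 0.00491), without the filter (0.0264), without shControl replicate 2 (0.0141) and without shControl replicate 3 (0.0459). None of the 9 tested sodium-proton and bicarbonate exchangers and their helpers passed either, and the one with the highest mean FPKM, CHP1, had a log2 difference of 0.15 (adjusted p = 0.486), or 0.044 without shControl replicate 2.

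Of 5 tested genes of the sodium-potassium pump, 1 passed: ATP1B1, a beta subunit, rose from 285, 154 and 216 CPM to 556, 609 and 579.5 CPM (log2 difference 1.41, SE 0.214, adjusted p = 0.0319). Of 11 tested genes for other channels and water channels, 1 passed: ANO6, a scramblase and ion channel linked to swelling, rose from 124, 110.3 and 159 CPM to 266, 279 and 234 CPM (log2 difference 0.99, SE 0.162, adjusted p = 0.0341). In both genes every knockdown library lay well above every control. The calls of SGK1, ATP1B1 and ANO6 were lost without shControl replicate 1, without any 1 of the shPUS1 libraries and with the replicate block, by edgeR's quasi-likelihood test, with adjusted p-values of up to 0.178, 0.211 and 0.222.

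The third route of volume recovery, the uptake and synthesis of organic osmolytes, held 4 of the 7 calls, from 7 tested genes. Over all genes, 1.74% were called higher. The list was chosen with earlier results of these data known, so its count of calls is a description and not a test. NFAT5, SLC6A6 and HSPA4L of this list did not pass edgeR's test. Their log2 differences were 0.65, 0.36 and -0.24 (adjusted p = 0.232, 0.357 and 0.255). The inositol carrier SLC5A3 rose by 3.14 on the log2 scale (adjusted p = 0.0138), the aldose reductase gene AKR1B1 by 2.30 (adjusted p = 0.0215) and the amino acid carrier SLC38A2 by 1.52 (adjusted p = 0.042). The betaine carrier SLC6A12 reached a sum of 553 counts over the knockdown libraries against 3 over the controls, a depth-corrected ratio of 169.9 (95% counting interval 57.8 to 827). The fitted log2 difference of SLC6A12, which depends on the prior count at so few control reads, was 5.87, and it passed edgeR's test (adjusted p = 0.00642). The differences of the 4 called genes were larger than that of any of the 9 channel, kinase and carrier genes, whose largest was 0.70, though differences between genes were not tested. The calls of SLC5A3 and SLC6A12 were lost without shPUS1 replicate 3 (adjusted p = 0.0555 for each), and that of SLC5A3 also with shControl replicate 1 left out (adjusted p = 0.0681). The call of AKR1B1 was lost without shControl replicate 1 or any 1 of the shPUS1 libraries (adjusted p up to 0.178), and that of SLC38A2 whenever a library other than shControl replicate 2 was left out, with the replicate block (0.0804), with library totals (0.0503) and with limma on log2(FPKM + 0.1) (0.0514).

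**Figure D4:**
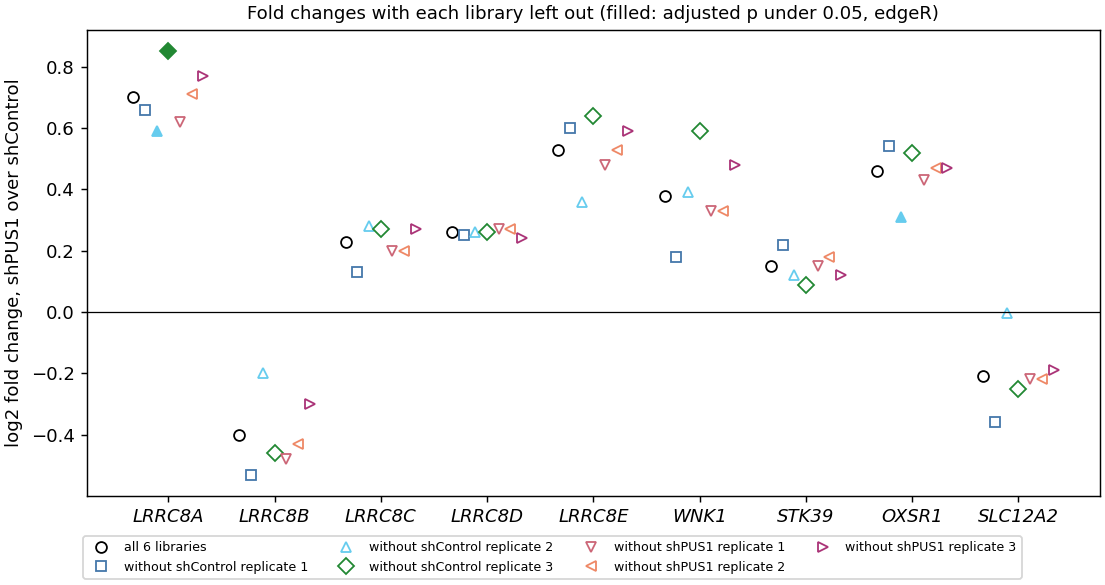
The log2 difference of each of the 9 genes (y axis, shPUS1 over shControl) is shown with all 6 libraries and with each library left out in turn (symbols; filled where edgeR's adjusted p was under 0.05). LRRC8A stays between 0.59 and 0.85, SLC12A2 reaches -0.0031 without shControl replicate 2, and 3 symbols are filled, 2 of them for LRRC8A and 1 for OXSR1.

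To see which genes behaved most like LRRC8A over the 6 libraries, the root mean square distance between centred log2 CPM values was taken over the 14747 other tested genes. The closest were DENND5A (distance 0.0409), ZSWIM6 (0.0448) and TANC1 (0.0463), with log2 differences of 0.65, 0.65 and 0.68, none of which passed the threshold (adjusted p = 0.0625, 0.0588 and 0.0602, edgeR's quasi-likelihood test). Among the other 8 genes of the group, LRRC8E was nearest to LRRC8A (distance 0.139, rank 182), followed by OXSR1 (0.179, rank 482) and WNK1 (0.26, rank 1663). LRRC8B was the farthest (0.623, rank 10646). These distances describe the same 6 libraries and differ with each gene's read depth.

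The starts of the 9 genes were read in 11 RefSeq promoter windows of GRCh38.p14, each covering 250 bases before a start and 50 after it. Their GC content was 62% to 78.7%, above the median of 58.7% over all windows. The GC box (GGGCGG) was found in 10 windows and in all 9 genes, beside 45% of all windows, and the TATA box (TATAAA) in 0, beside 11.5%. The element printed above (TGACGTCA) was found in LRRC8A and OXSR1 alone among the 9, the AP-1 element (TGACTCA) in LRRC8B and LRRC8E, beside 4.95% of all windows, and the CCAAT box (CCAAT) in LRRC8B and LRRC8D, beside 34.6%. The core of the element read by NFAT factors (TGGAAA) was found in WNK1 only, beside 20.7%, and the E-box (CACGTG) in 0, beside 7.26%. Both strands were searched, none of the strings contains another, and the 7 strings were chosen after these windows had been looked at.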

How the data were processed

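Poly(A) RNA of MDA-MB-231 cells, 3 shControl and 3 shPUS1 samples, had been sequenced in pairs on an Illumina NovaSeq. Per the submitters' processing notes and the methods, the authors aligned reads with HISAT2 and counted them with HTSeq 0.6.1; the build, annotation release and strandedness are not given in the sources used here. The deposited estimated counts per gene are not normalized and in part not whole, and the deposited FPKM values were made by the authors from them per exonic length and library total. The coordinates are those of the deposited table, and lie within 546 bases of GENCODE 29 (GRCh38) for each of the 9 genes. Its gene models served to find overlapping genes.

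Rounded counts that passed filterByExpr were normalised with TMM factors. Quasi-likelihood tests came from edgeR 4.0.16 (R 4.3.3, prior count 2), with Benjamini-Hochberg adjustment over 14748 genes. The biological coefficient of variation was 0.22. The fit was also run on simulated data. The settings and outcome of that run are not given here. It therefore does not show how well differences of the size reported for these genes would be found. DESeq2 1.42.0 and limma 3.58.1 gave alternatives. Shares and ratios were tested with an exact permutation test (scipy 1.17.1, Python 3.11.15). Counts allow intervals for counting error only.

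The 9 genes, the wider lists and the tests were chosen with earlier results of these data known. Named were the 9 genes, PUS1, in each wider list the genes past an adjusted p of 0.05 (at most 4) or else the one with the highest mean FPKM, and the 3 genes nearest to LRRC8A. The uncalled genes of the osmolyte list were named as well. The alternatives were no filter, DESeq2 size factors, library totals, DESeq2, limma on log2(FPKM + 1) and log2(FPKM + 0.1) for a mean FPKM of at least 1, a replicate block and each library left out. Libraries with the same replicate number did not deviate together (residual correlations of -0.0529, -0.0256 and -0.19). Some single genes of the wider lists are not reported here.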

Additional observations from a re-analysis of the deposited data

How the results depend on the processing

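Of the 9 genes, 1 was called higher with DESeq2 and 1 without the filter on low counts, and 0 to 2 with a library left out, the higher value without shControl replicate 2. With the replicate block 0 of the 9 were called, and the paired fit left 18 genes called higher and 0 called lower in the whole table. Over all genes, 256 were called higher and 124 lower. DESeq2 called 980 and 750, the fit without a filter 756 and 528, library totals 164 higher, and limma on log2(FPKM + 0.1) 134 higher. With a library left out the counts ran from 0 to 1483 higher and from 0 to 1330 lower, largest without shControl replicate 2. Between 1 and 5 of the 9 genes were higher at an unadjusted p under 0.05 with a library left out, beside 7.53% to 17.3% of all genes in the same fits, and 5 or 6 were higher without overlap, beside 20.7% to 25.3% of all genes (both counts were added after seeing the data). The fall of PUS1 lost its call with the replicate block (adjusted p = 0.0969), with both limma settings, without shControl replicate 1 and without any 1 of the shPUS1 libraries, by edgeR's or limma's test with an adjusted p of up to 0.253. No log2 difference of the 9 genes changed sign under the 13 alternatives, and no share or ratio difference moved by more than the larger of its 2 group SDs, which was that of shControl, though the shares of LRRC8B, LRRC8C and LRRC8E and the ratio moved by more than their smaller shPUS1 SDs and LRRC8E changed sign without shControl replicate 2. With 3 libraries a group, an exact test of a single value could not reach 0.05.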
